A study of Caenorhabditis elegans with 2 samples.

Results

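The regions described here are the autosomal exonic regions outside promoters that were listed in chromatin immunoprecipitation and sequencing (ChIP-seq) of UNC-62, a homeodomain transcription factor, in *Caenorhabditis elegans*. They were chosen from the authors' list of regions for both replicates pooled. A region was taken when its summit, the base of highest enrichment, lay in a coding or untranslated exon of a protein-coding gene on an autosome and outside every promoter window. A promoter window ran from 1000 bp upstream to 500 bp downstream of a protein-coding transcript start. The rule used position only, and 533 of the 3790 autosomal regions met it, or 14.1% (95% Wilson interval 13 to 15.2%). The whole pooled list held 4849 regions, including those on X and on the mitochondrial genome.

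Both samples belong to 1 group, whole L4 larvae of mixed sex, with 2 biological replicates. Strain OP600 carries the unc-119 allele ed3 and the integrated transgene wgIs600, in which unc-62 is fused to a TY1, EGFP and FLAG tag and an unc-119 copy is supplied for rescue. The worms hold this tagged extra copy, and the labels give unc-62 as the antibody target without saying whether the antibody saw the protein or the tag. The chromatin was sheared by sonication, and the authors' control library was not analysed here. With no second stage, genotype or treatment, the comparisons are between classes of regions and between the replicates, and whole worms mix all tissues.

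UNC-62 is the worm member of the Meis and Homothorax family of TALE homeodomain proteins, which pair with Pbx-type and Hox proteins on DNA and regulate developmental and, in the adult intestine, metabolic genes. Meis-class proteins recognise the short word TGACAG and its complement CTGTCA. Exons can hold such words within protein-coding sequence, and enriched regions in exons are described in many ChIP-seq data sets beside those in promoters, introns and intergenic DNA.

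The sequences that follow show what the word looks like inside exons, with the word in capitals, each 30 bases long and written 5′ to 3′ on the strand that carries TGACAG. The first 5 are the members of highest signal with the word in a coding exon, leaving aside 1 chromosome whose sequence is not printed. The unc-22 and nhr-55 pairs are shown because both regions of each gene held it. They were read from the RefSeq sequence of WBcel235, the assembly equivalent to ce11. The F57B1.6 and C01B10.6 windows run past the coding sequence.
F57B1.6, chrV:13212748-13212777, minus strand: actcacggcgagTGACAGtatcatttgatt
stdh-1, chrV:13907769-13907798, plus strand: gttcttcaccccTGACAGtgacacgtttgc
hsp-17, chrV:8384950-8384979, plus strand: tcttctcatattTGACAGtgagcactccat
C01B10.6, chrIV:6643009-6643038, minus strand: ttgtgcattcagTGACAGctgaaacattga
F26G1.1, chrII:4794209-4794238, minus strand: tcaataatgaatTGACAGgcagatatatcg
unc-22 first region, chrIV:11985047-11985076, plus strand: cggctccaaccgTGACAGctggtacccagt
unc-22 second region, chrIV:11981942-11981971, plus strand: aagtgtgtctgcTGACAGctgggtaagtaa
nhr-55 first region, chrV:480365-480394, minus strand: gtgtagatgattTGACAGggtctcttggaa
nhr-55 second region, chrV:479167-479196, minus strand: tttcagaacattTGACAGtttatcgataag

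The highest region of all lacked the word within 100 bp of its summit, as did its neighbour. Around the summits of arrd-6 and pqm-1, neighbouring genes on chromosome II, the 30 bases read as follows on the strand of each gene, with the summit base in capitals. The pqm-1 window runs from the exon into the intron beside it.
arrd-6 summit, chrII:11150024-11150053, plus strand: tggtcgcatcgaatcCatgtttggcaatga
pqm-1 summit, chrII:11151135-11151164, minus strand: tatcaggaggcatcAaatcaagtgagtttt

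In the pooled list, exonic regions were fewer than the length of exonic DNA alone would give. Exons outside promoter windows made up 19.2% of autosomal bases and held 14.1% of regions, or 33.7 regions per Mb. Introns held 34.2, intergenic DNA 43.0 and promoter windows 63.9 regions per Mb. Within the exonic class, 417 summits lay in coding exons, 109 in 3′ UTRs and 7 in 5′ UTRs. Coding exons made up 88.1% of the exonic bases and held 78.2% of the regions (74.5 to 81.5%), at 29.9 per Mb. Untranslated exons made up 11.9% of the bases and held 21.8% of the regions (18.5 to 25.5%), at 61.5 per Mb. These differences in density were not tested, and the part of exonic sequence to which reads could be mapped is unknown.

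The members were spread over all 5 autosomes, with 94 on I, 110 on II, 108 on III, 87 on IV and 134 on V. Their share of the regions on a chromosome was lowest on IV, at 10.5%, and between 14.5 and 15.7% on the other chromosomes. On X, which the rule leaves out, 149 of 1038 regions, or 14.4%, met the same definition. Every member was 416 bp wide. The members lay in 513 protein-coding genes, with 6 regions in exons of 2 genes at once. When each region was given to 1 gene, 482 genes held 1 member, 24 held 2 and R02F2.1 held 3. Genes with a member had a median of 1399 bp of exonic sequence outside promoter windows, against 630 bp for the other 16729 autosomal protein-coding genes. Length was not removed from any count of genes below.

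The summits lay in exons of the usual length and at the usual distance from exon edges, and more often in last exons. The exon that held the summit had a median length of 355 bp (quartiles 205 and 623 bp), against 351 bp over all autosomal exonic positions outside promoters. In 314 members, or 58.9% (54.7 to 63.0%), the summit was within 100 bp of the nearest exon edge, as were 59.7% of those positions. In 191 members, or 35.8% (31.9 to 40.0%), it lay in the last exon of the transcript, against 24.6% of positions, a difference that was not tested. This share includes the 109 members in 3′ UTRs, and it was not computed for coding exons alone. The rule itself leaves out summits near a start, and the nearest start of a transcript of the same gene was a median of 1763 bp away, with a range from 503 to 26230 bp. A 416-bp region centred on such a summit thus commonly spanned intronic or flanking sequence as well.

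Signal in the exonic class was low. The authors' signal value, whose scale is unknown, had a median of 8.71 in the pooled list (quartiles 8.06 and 10.1, highest 45.2). The median was 9.06 for intronic, 9.25 for intergenic and 9.29 for promoter regions, and 9.15 over all autosomal regions. The median member ranked 2949 of 4849 in the pooled list, against 2462.5 over all autosomal regions. Coding exons had a median signal of 8.56, 3′ UTRs 9.24 and the 7 regions of 5′ UTRs 10.5. The classes overlap over nearly their whole range, and these medians were not tested.

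The exonic share fell toward the top of the list. Among the 200 autosomal regions of highest pooled signal, 3.5% were exonic. The share was 6% from there to rank 500, 11.8% on to rank 1000, 14.3% on to rank 2000, 16.4% on to rank 3000 and 18% below that. The lists of the single replicates ran the same way. In replicate 1, 6.5% of the 200 highest autosomal regions were exonic, and 20.4% of all 14603 were. In replicate 2, the corresponding shares were 4% of the 200 highest and 17.5% of all 16520. The bottom of each list therefore came close to the exonic share of autosomal bases, and the top was well below it in both replicates.

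**Figure D1:**
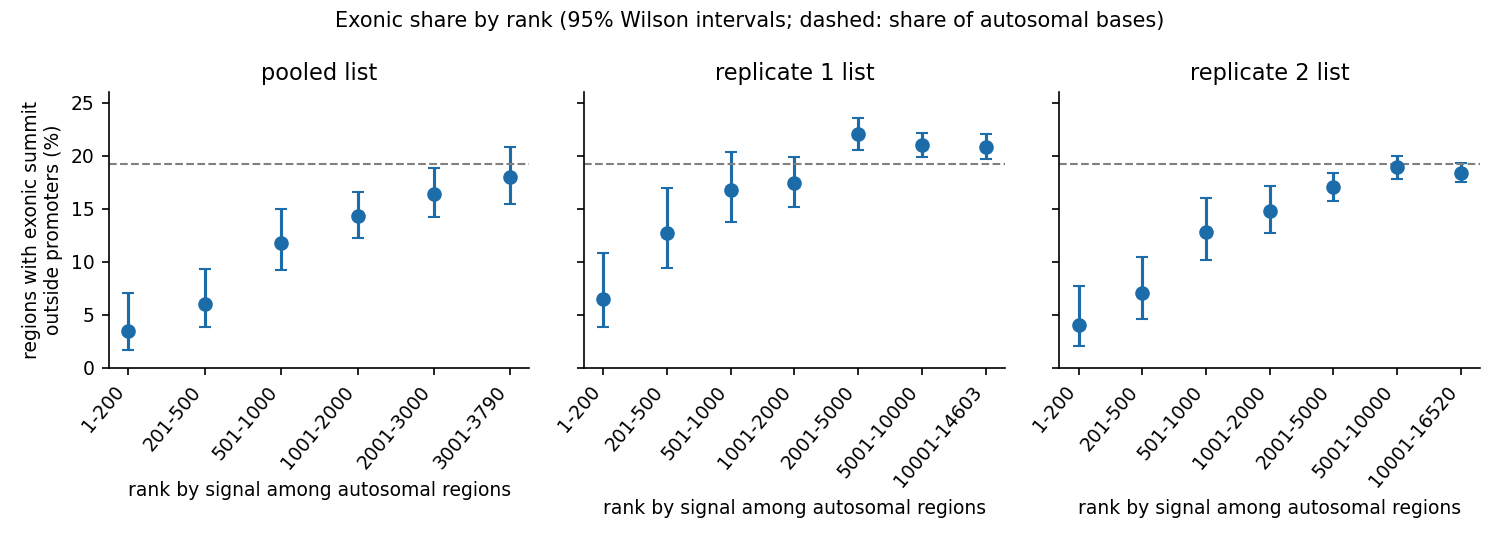
Share of autosomal regions with an exonic summit outside promoters (%, y axis) by rank of signal (x axis) in the pooled list and in the list of each replicate, with 95% Wilson intervals; the dashed line is the 19.2% of autosomal bases in this class. In all 3 lists the share is lowest among the 200 highest regions, at 3.5% pooled, 6.5% in replicate 1 and 4% in replicate 2.

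Few members passed a threshold on the authors' q-value. In the pooled list, 9 of 533 members had a q-value of 0.05 or less, or 1.69% (0.891 to 3.18%), where 6.28% of all autosomal regions did. The share was 6.06% of intronic, 7.59% of intergenic and 7.15% of promoter regions. The 9 were 5 coding exon regions, 2 in 3′ UTRs and 2 in 5′ UTRs. At the other end, 430 members, or 80.7%, had a q-value over 0.5, against 70.6% of all autosomal regions. Taken from the whole list of replicate 1, without replicate 2, the share of exonic regions was 5.44%, against 8.01% of all autosomal regions. From the list of replicate 2 alone it was 0.864%, against 2.64%. In the pooled list, the interval of the exonic share did not reach those of the other classes, which cover only the counting of regions.

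The exonic class also had the lowest share of the 4 classes in the lists of the single replicates. The region of replicate 1 that overlapped a member had a q-value of 0.05 or less in 92 members, or 17.3%, against 22.3% of all autosomal regions. In replicate 2 this held for 22 members, or 4.13%, against 12.7%. Both replicates passed in 10 members, or 1.88% (1.02 to 3.42%), against 5.86%, and 8 regions of replicate 1 lay behind those 10. They were in F22D3.4, pno-1, mnk-1, arrd-6 (2 regions), nmad-1, Y55D9A.2, F52E1.14, hsp-17 and noca-1. The separate short list of peaks that the authors thresholded on reproducibility held 197 peaks. Only 5 members overlapped 1 of them, or 0.938% (0.401 to 2.18%), against 3.88% of all autosomal regions.

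**Figure D2:**
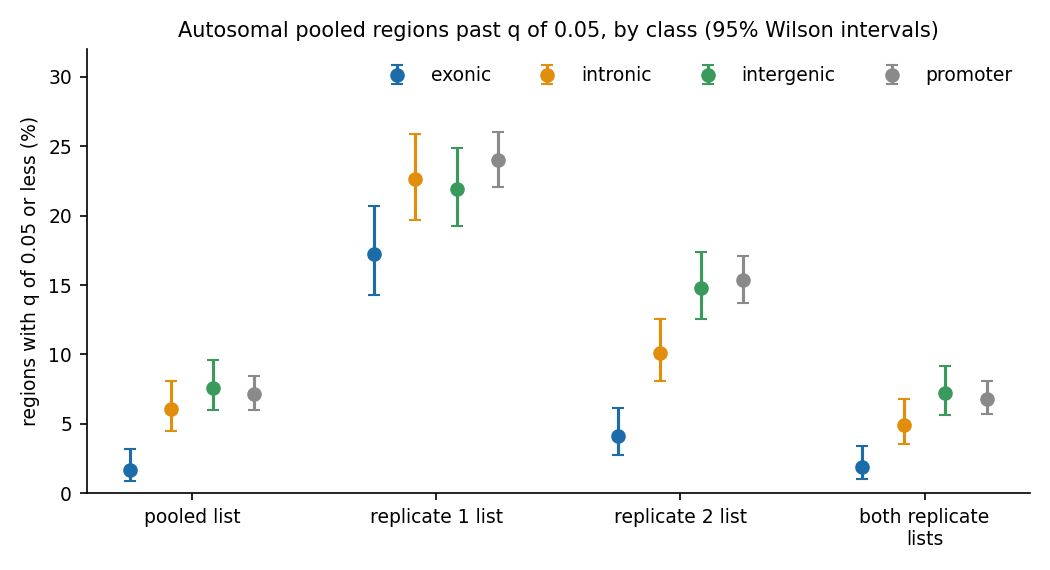
Share of autosomal pooled regions whose q-value was at most 0.05 (%, y axis) in the pooled list, in the overlapping region of replicate 1, of replicate 2 and of both, by class of region, with 95% Wilson intervals. The exonic class is the lowest in each of the 4 groups, from 17.3% in replicate 1 to 1.69% in the pooled list.

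Presence in the unthresholded replicate lists differed less between the classes. Of the 533 members, 273, or 51.2% (47.0 to 55.4%), overlapped a region of both replicates, against 57.2% of all autosomal regions. With summits required to lie within 100 bp of each other, these shares were 30.2% and 33.7%. A further 90 overlapped a region of replicate 1 alone, 161 of replicate 2 alone, and 9 of neither. Replicate 2, whose list was the longer, thus covered 81.4% of the members and replicate 1 68.1%. A region counted as high in both replicates when it overlapped regions among the 197 highest of each list, the length of the thresholded list. This was so for 3 members, or 0.563%, against 1.37% of all autosomal regions, and the 3 were both arrd-6 regions and pno-1. It became 0.188% against 0.844% with summits within 100 bp, and 2.44% against 6.15% among the 1000 highest of each list.

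Within the exonic class, a high rank in 1 replicate said little of the rank in the other. Over the 273 members in both lists, Spearman's correlation of the signals was -0.04, and Pearson's correlation of the log2 signals was 0.17. The Spearman values were 0.07 for intronic, 0.26 for intergenic and 0.16 for promoter regions. These are descriptions over regions of the same 2 libraries, whose depth is unknown, and regions are not replicates. The regions were drawn from the pooled list, which was made from both replicates. How that choice changes the correlations was not tested. Some members also share a replicate region with another member, 44 in replicate 1 and 40 in replicate 2.

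**Figure D3:**
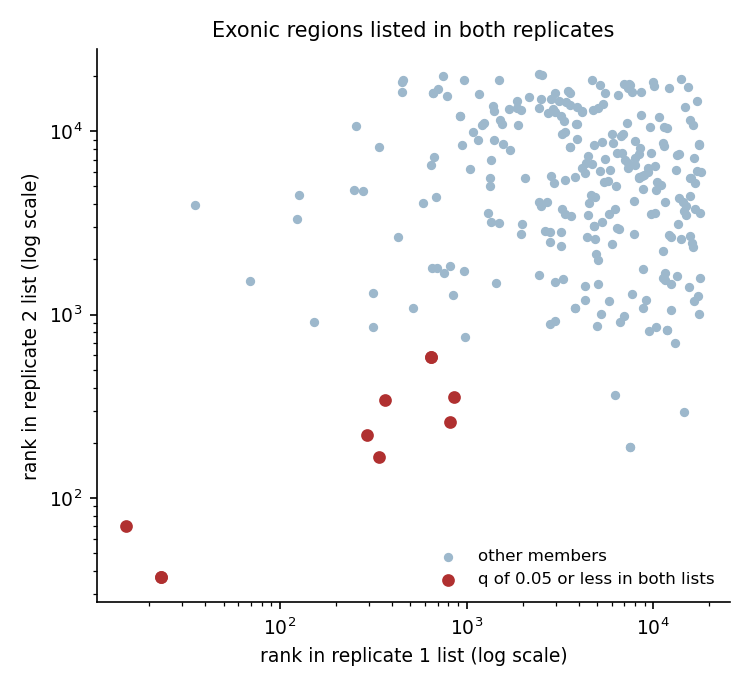
Rank of the overlapping region in the list of replicate 1 (x axis, log scale) and of replicate 2 (y axis, log scale) for the 273 members found in both; red points are the 10 members with a q-value of 0.05 or less in both lists, where members that share regions coincide. The red points lie near the lower left. Over all 273 members, the red points included, the Spearman correlation of the signals is -0.04.

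The strongest exonic region lay at the 3′ end of arrd-6 (WBGene00009579), which encodes an arrestin domain protein. It covered chromosome II from 11149831 to 11150246 and its summit was in coding exon 9 of 9, 2524 bp from the nearest start. Its signal was 45.2 in the pooled list (rank 25), 17.4 in replicate 1 (rank 23) and 28.7 in replicate 2 (rank 37). All 3 lists thus placed it near the top, and it overlapped a thresholded peak. It was 1 of 2 members among the 197 highest regions of the pooled list. A second arrd-6 region, in the 3′ UTR with its summit 199 bp away, overlapped it, was assigned the same replicate regions by overlap and had a pooled signal of 13.1.

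The next gene, pqm-1 (WBGene00004096), held another member. It encodes a zinc-finger transcription factor of stress and metabolic responses linked to insulin signalling. The gene ends at base 11150391, next to the end of arrd-6 at 11150390 on the opposite strand. The pqm-1 region, from 11150942 to 11151357, had its summit in coding exon 5 of 6, 1111 bp from that of arrd-6. Its pooled signal was 17.4 (rank 315), with 10.7 in replicate 1 (rank 124) and 5.89 in replicate 2 (rank 3339). The pqm-1 region was thus high in the list of replicate 1 alone. Over all members in both lists the ranks were close to uncorrelated, as given above, so such a gap is not particular to it.

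The second strongest member was in F57B1.6 (WBGene00010189), on chromosome V from 13212630 to 13213045, in coding exon 5 of 6. This region also overlapped a thresholded peak. Its signal was 22.1 pooled (rank 159), 12.7 in replicate 1 (rank 69) and 7.28 in replicate 2 (rank 1518). TGACAG lay 75 bp from its summit, and it was the only 1 of the 9 members with a pooled q-value of 0.05 or less that held the word. The nearest transcript start of F57B1.6 was 656 bp away, so the summit lay just beyond the promoter window of that start. The gene itself begins farther upstream, at base 13209645.

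The other 6 members with a pooled q-value of 0.05 or less had pooled signals from 20.1 down to 17. The region of dos-3, a gene named for the DOS motif of Notch co-ligands, was in coding exon 11 of 11 and had a pooled signal of 20.1, with rank 35 in replicate 1 and rank 3959 in replicate 2. The 3′ UTR region of Y55D9A.2 had 19.9, with ranks 852 and 357. The 5′ UTR region of F22D3.4 had 19.1, with ranks 364 and 341, and lay within 500 bp of a non-coding RNA gene. The region of cth-2, which encodes a cystathionine gamma-lyase of the transsulfuration pathway, had 19.0, with ranks 516 and 1093. The 3′ UTR region of F35G2.1 had 18.7, with ranks 152 and 907, and also lay within 500 bp of a non-coding RNA gene. The 5′ UTR region of noca-1, a gene of non-centrosomal microtubule arrays, had a signal of 17, with ranks 341 and 167. Only Y55D9A.2, F22D3.4 and noca-1 among these 6 had a q-value of 0.05 or less in both replicates.

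Below them, members 10 to 20 had pooled signals from 15.4 down to 13.8 and included genes of several roles. The 3′ UTR of atfs-1, the transcription factor of the mitochondrial unfolded protein response, had a pooled signal of 14.1, with rank 5022 in replicate 1 and rank 864 in replicate 2. The 3′ UTR of hlh-30, the worm TFEB orthologue that drives lysosome and autophagy genes, had 13.8, with ranks 6247 and 367. A coding exon of plin-1, the perilipin of lipid droplets, had 14.5, with ranks 761 and 1694. A coding exon of sodh-2, an alcohol dehydrogenase gene, had 14.9, with rank 177 in replicate 1 and no region in replicate 2. The 3′ UTR of mnk-1, a kinase downstream of MAP kinases, had 14.7, with ranks 813 and 259. A coding exon of ift-74, an intraflagellar transport gene of cilia, had a signal of 14, with ranks 982 and 751. The atfs-1 and hlh-30 regions ranked far higher in replicate 2 than in replicate 1, and sodh-2 the reverse. The others of this group were regions of R02F2.1 (2 regions), anat-1, Y71F9AL.10 and F52E1.14, and 11 of the 20 strongest members lay in untranslated exons, against 116 of all 533.

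**Figure D4:**
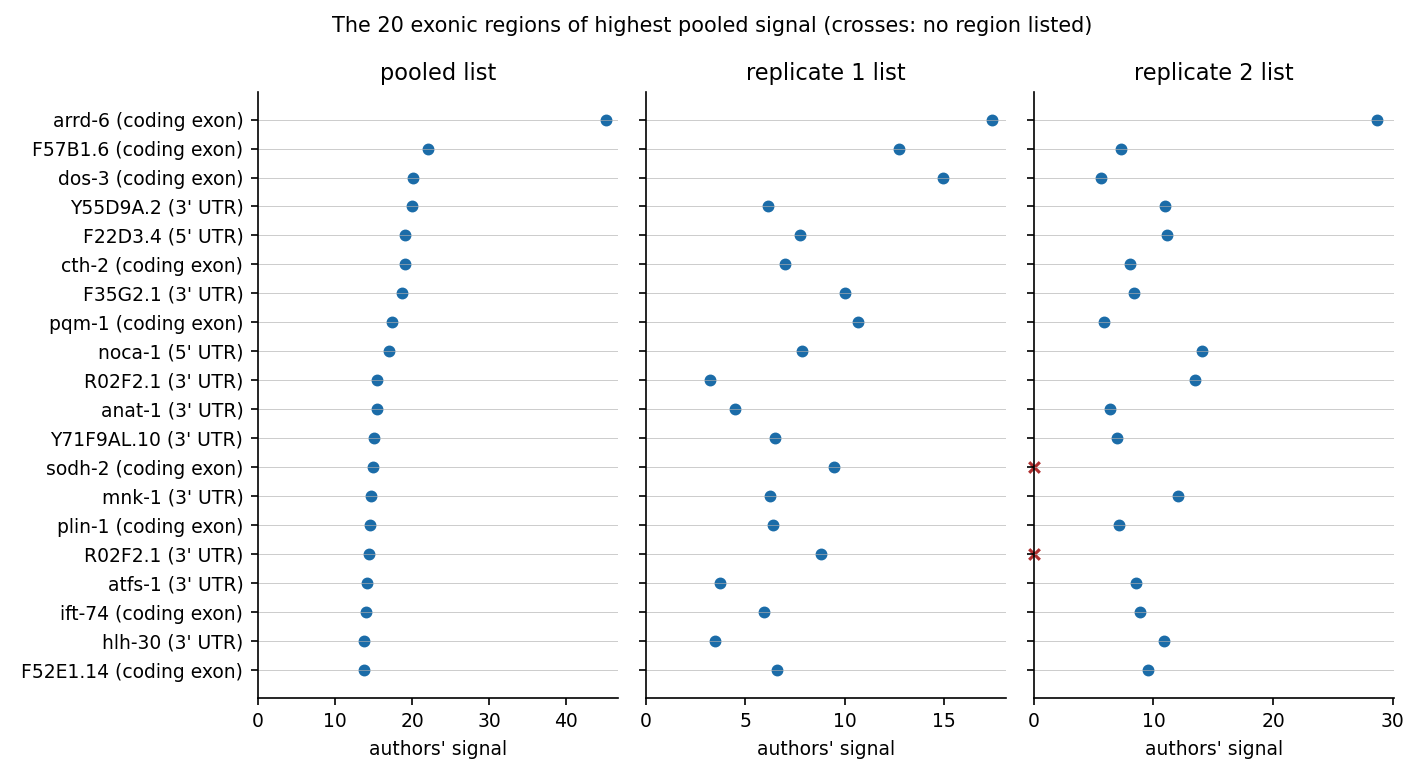
The authors' signal (x axis, each panel on its own scale) of the 20 exonic regions of highest pooled signal (y axis, gene and kind of exon) in the pooled list and in each replicate; crosses mark members with no region in that replicate's list. Only arrd-6 leads in all 3 panels, and sodh-2 and 1 R02F2.1 region have no region in replicate 2.

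Several members lay against a stronger neighbour. In all, 37 members overlapped another region of the pooled list, and in 18 that region was the stronger, being exonic in 11 cases, intronic in 4, in a promoter in 2 and intergenic in 1. The coding region of pno-1, a gene of ribosome biogenesis, had a pooled signal of 9.84, while an overlapping intronic region had 41.0. Its ranks of 15 in replicate 1 and 70 in replicate 2 belong to regions that overlap both. The coding region of nmad-1 had 11.2 and its intergenic neighbour 20.9. The coding region of hsp-17, a small heat shock protein gene, had 11.1. Its summit was 293 bp from that of F52E1.14, at 13.8, and both took the same replicate regions, ranked 647 and 589. Of the 5 members that overlapped thresholded peaks, the strongest arrd-6 region and F57B1.6 overlap no stronger region. The second arrd-6 region, pno-1 and nmad-1 overlap a stronger neighbour.

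Besides arrd-6, the genes with several members had moderate signals. R02F2.1 had 3 regions over 1048 bp, with a highest pooled signal of 15.4. Then came F35G2.1 at 18.7, mnk-1 at 14.7, pac-1 at 13.4, C05D11.8 at 12.9, smut-1 at 12.3, Y82E9BR.18 at 11.4, let-413 at 11.2 and bed-2 at 10.3, each with 2 regions and the value of the higher one. Of these, let-413 encodes a Scribble-type polarity protein of epithelia. Both regions of daf-16, the FOXO factor downstream of insulin signalling, were weak, at 9.48 and 7.97. They were 1509 bp apart and overlapped regions of replicate 1 but not of replicate 2.

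TGACAG was about as common at exonic regions as in exonic sequence at large. It lay within 100 bp of the summit in 41 members, or 7.69% (5.72 to 10.3%), against 9.34% of all autosomal regions. At every autosomal exonic position outside promoters, taken as a window of the same length, the share was 7.84%. These positions were not matched to the members in kind of exon. Untranslated exons held 21.8% of members on 11.9% of exonic bases. The word was at 8.87% of coding exon members and 3.67% of 3′ UTR members, and position shares by kind of exon were not computed. In the other classes the regions were above their own positions. The share was 10.1% at intronic regions against 5.56% of intronic positions, 12% at intergenic regions against 6.69%, and 8.25% at promoter regions against 6.55%. The word was searched on both strands, and these shares were not tested against each other.

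**Figure D5:**
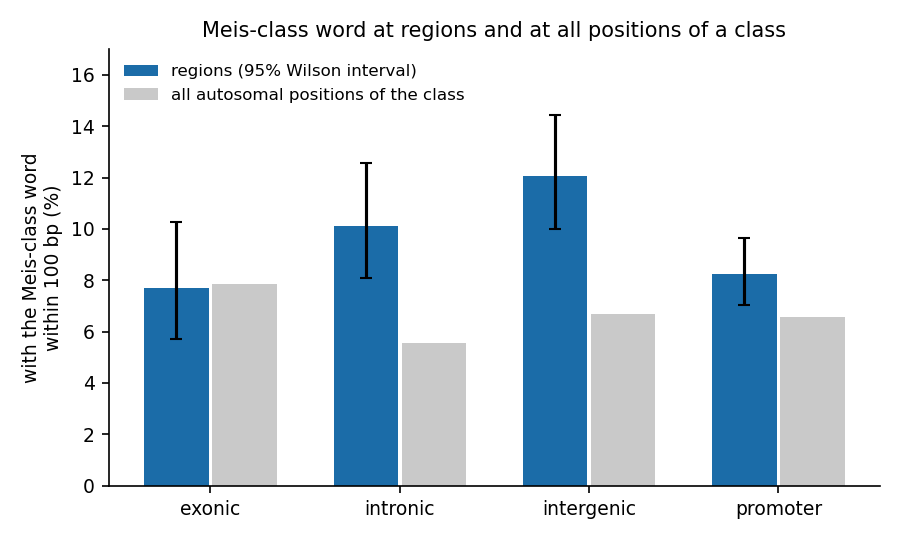
Share with TGACAG on either strand within 100 bp (%, y axis) at the autosomal pooled regions of each class (blue, 95% Wilson intervals) and at all autosomal positions of that class (grey). The exonic bars are 7.69% and 7.84%, while in the other 3 classes the blue bar is the taller.

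Members with the word spanned the range of signal. The word was in 2 of the 50 strongest members, 5 of the 100 strongest and 14 of the 200 strongest, or 7% (4.22 to 11.4%), and in 27 of the remaining 333, or 8.11% (5.63 to 11.5%). The median signal was 8.78 for the 41 members with the word and 8.69 for the 492 without it. Of those with it, 23, or 56.1%, overlapped regions of both replicates, and of those without it 250, or 50.8%. Among the 41, 37 lay in coding exons and 4 in 3′ UTRs. After F57B1.6, the next was a 3′ UTR region of R02F2.1, at 12.9. Among the coding exon members the next was stdh-1, at 11.1, with rank 582 in replicate 1 and rank 4041 in replicate 2.

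The sequences of unc-22 and nhr-55 printed above belong to such low regions. The gene unc-22 encodes twitchin, a giant kinase of the muscle sarcomere. Its 2 regions were 2930 bp apart in a single exon of 9614 bp, at pooled signals of 9.23 and 8.78. The first had rank 1023 in replicate 1 and no region in replicate 2, and the second had ranks 5526 and 7039. The 2 regions of nhr-55, a nuclear hormone receptor gene, were 1228 bp apart in exons 6 and 4, with pooled signals of 8.72 and 8.65. Neither gene had a q-value of 0.05 or less in the pooled list.

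Other short words differed from exonic sequence at large by a few percentage points at most. The GATA-factor word TGATAA lay within 100 bp of 22.5% of members (19.2 to 26.2%), of 18.4% of exonic positions and of 26.3% of all autosomal regions. A second GATA-factor word, AGATAA, was at 10.1% of members and 10.1% of exonic positions. The GA repeat GAGAGAG was at 3.0% of members (1.86 to 4.82%), against 2.1% of positions, and at 7.68% of all autosomal regions. The E-box CACGTG was at 5.07% and 4.82%, the GC-rich word GGGCGG at 2.25% and 2.69%, and TGATNNAT at 17.1% and 18.7%. The shorter TGACA, which is part of TGACAG, was at 36.6% and 36.3%. The longer Pbx and Meis composite TGATTGACA, which contains TGACA, was found in 1 member, or 0.188% (0.0331 to 1.05%). It was at 0.227% of exonic positions and 0.607% of all autosomal regions. A word is a run of letters and says nothing by itself about binding.

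Base composition and repeats also differed between the classes, without a test. The GC content within 100 bp of the summit had a median of 38.8% (quartiles 34.8 and 42.3%), equal to the median of 38.8% over all exonic positions. It was 36.3% for intronic, 35.8% for intergenic and 36.8% for promoter regions, and within the class 39.3% in coding exons and 33.8% in 3′ UTRs. Words of 24 letters found elsewhere in the genome occurred around the summit in 47 members, or 8.82%, against 16% of all autosomal regions and 24% of intronic ones. A non-coding RNA gene other than a piRNA gene lay within 500 bp of 25 members, or 4.69%, against 13.3% of all autosomal regions. How far repeats and non-coding RNA genes account for the lower signal of exonic regions was not tested.

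The edge of the promoter window was not marked by a step in signal. The 35 members that lay at most 100 bp outside a window had a median signal of 8.65. The 43 exonic regions at most 100 bp inside one, which the rule leaves out, had 8.57, and no region on either side had a q-value of 0.05 or less. All 506 exonic regions inside windows had a median of 8.99, and 21 of them, or 4.15%, had such a q-value. Among members, the median was 8.71 for the 288 within 1000 bp of a window and 8.69 for the 245 farther away, with 6 and 3 at a q-value of 0.05 or less. Exonic regions on X, 149 in all, had a median of 8.68, and 5 of them, or 3.36%, passed that q-value.

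The host genes were next read against lists of gene families, as counts beside the 2.98% of all 17242 autosomal protein-coding genes that held a member. Nuclear hormone receptors, the large worm family of ligand-regulated zinc-finger factors, were hosts in 13 of 247 genes, or 5.26%. Their 15 regions made up 2.81% of members, while the family holds 1.39% of exonic bases outside promoters. The strongest were nhr-88 at 11.8, nhr-8 at 11.7, nhr-61 at 11.3 and nhr-105 at 9.18, and the median over the 15 was 8.62. No region of the family had a pooled q-value of 0.05 or less.

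Genes of large structural proteins also held members. Among body wall muscle genes 3 of 19 were hosts, with 5 regions, namely unc-22, unc-89, the obscurin-like giant of the M-line, and pat-3, the beta integrin of muscle attachments. The pat-3 region was the highest of them, at 12.7. Among spectrins and other cytoskeletal giants 3 of 15 were hosts, the beta-heavy spectrin gene sma-1, the ankyrin gene unc-44 and the dynein heavy chain gene dhc-1. Basement membrane and matrix genes gave 3 of 16, nid-1, dig-1 and dex-1. These 3 lists hold long genes, with 0.906%, 0.978% and 0.789% of exonic bases, and their regions were 0.938%, 0.75% and 0.563% of members.

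Most of the other families held 1 member or none. Of 79 cytosolic ribosomal protein genes, rpl-14 was a host, with a signal of 7.87, and this region was 0.188% of members where the family has 0.0498% of exonic bases. Of 145 cuticle collagens, col-76 was, at 7.83, or 0.188% of members on 0.558% of bases. No host was found among 77 histone, 53 major sperm protein, 13 translation factor, 12 tubulin or 8 pharynx muscle genes, nor in the 1 autosomal vitellogenin gene. The list of chaperones, which leaves out the hsp-17 gene named above, gave 2 of 20 (cct-3 and pdi-1). Glycolysis gave 1 of 16 (aldo-2) and intestine effector genes 1 of 22, the acid phosphatase pho-1 at 11.8. Those 3 shares of hosts, 10%, 6.25% and 4.55%, were above the 2.98% of all genes but rest on 1 or 2 genes each. The histone and major sperm protein genes hold 0.0261% and 0.00289% of exonic bases outside promoters. Translation factor, tubulin and pharynx muscle genes hold 0.0953%, 0.0669% and 0.105%, and the vitellogenin gene 0.0291%. All these shares are too small for a count of 0 to say much.

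Among regulators, no host was found in the list of 68 homeobox and TALE genes or in that of 24 germline genes. These lists hold 0.416% and 0.226% of exonic bases, so that few regions could fall there. The germline list is short, and its count of 0 says nothing of germline genes outside it. The list of heterochronic and Wnt regulators gave 3 hosts of 25, and all 3 were receptors of the Frizzled family, which take up Wnt ligands. They were lin-17 at 11.3, cfz-2 at 11.2 and mom-5 at 8.27. Frizzled genes were picked out after these values had been seen. The cfz-2 and lin-17 regions were in both replicate lists, with ranks of 4161 and 6316 for cfz-2 and of 5831 and 1181 for lin-17, while mom-5 was in that of replicate 2 alone, at rank 3376. None had a q-value of 0.05 or less in any of the lists.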

How the data were processed

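UNC-62 ChIP-seq of 2 biological replicates was read from the authors' peak lists in build ce11. Per the file headers of the read-me texts, each list came from the alignments of a replicate, or of both pooled, and a control. For aligner, caller, versions and the short list's threshold, nothing is stated in the sources used. The authors' deposited signal has an unknown scale that differs between lists, so it was used for ranks and medians within a list and for correlations between lists, and signals from different lists are not compared in size. The deposited −log10 q-value was converted to q. No read counts are given, so depth is unknown, and the Wilson intervals (95%) cover only the counting of regions.

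Summits were placed on the WBcel235 annotation of Ensembl release 115, and sequence was read from RefSeq. A member was found in a replicate where they shared at least 1 bp, and the overlapping region of highest signal was used. Positions are 1-based. Named were members that overlap a thresholded peak, the 20 of highest signal, those high in both replicates, the 10 genes with most members, and up to 4 genes per list. Other named members were chosen after their values were seen. The members, words and gene lists were chosen with earlier results of these data known. Class differences were described, not tested. Scripts (Python 3.11.15, pandas 2.3.3, numpy 2.4.6, scipy 1.17.1, matplotlib 3.10.9) were tested on simulated data. Lists for ce10 and signal tracks were not used here.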

Additional observations from a re-analysis of the deposited data

How the results depend on the processing

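Of 83 results recomputed under other settings, 64 stayed within the 95% interval of the reported value and 19 moved. The exonic share of autosomal regions became 16.1% with promoters from 500 bp upstream, 11.4% with 2000 bp and 11.0% for coding exons alone. It was 12.8% without members holding 24-letter words found elsewhere. There, only members were removed and all other regions stayed, so the share could only fall. Such words were at 8.82% of members and 16% of all autosomal regions. Among regions whose q-value was at most 0.05, the exonic share was 3.78%. Leaving out each replicate in turn gave 17.5 to 20.4% for this share and 0.864 to 5.44% for members with a q-value of 0.05 or less, from lists that are longer than the pooled one. At a q-value of 0.01 the pooled count is 0, since the lowest pooled q-value is 0.0381. The share overlapping thresholded peaks was 0.388% without members that overlap a stronger region, an alternative chosen after seeing the data. The share in both replicates was 43.7% with a reciprocal overlap of 50% and 30.2% with summits within 100 bp, where the share high in both was 0.188%, and it was 2.44% among the 1000 highest of each list. TGACAG was in 3.94% within 50 bp and 13.7% within 200 bp, since a longer window holds more words. Median GC was 39.6% and 37.7% in those windows, and the cause was not tested. No paired analysis was possible because there is 1 group. Without read counts, what depth limits is unknown.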
